A study of Homo sapiens with 12 samples.

Results

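MOLM-13 cells treated with JOA were compared with their DMSO controls across all genes expressed in this line. MOLM-13 is a human acute monocytic leukemia cell line with an MLL rearrangement and an internal tandem duplication of FLT3, and JOA (Jiyuan oridonin A) is an ent-kaurene diterpenoid of natural origin. There were 3 control libraries and 3 libraries of cells given 0.5 μM JOA, out of 12 libraries in the series, and the samples are labelled as collected after 48 h. The other 6 libraries came from THP-1 cells, which received 2 μM, so that cell line and dose differ together. The comparison covered 9686 of the 20030 genes in the table, those with a mean of at least 1 FPKM, a fragment count scaled to gene length and to the library's mapped fragments, over the 6 MOLM-13 libraries.

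Acute myeloid leukemia cells are blocked as immature precursors that divide quickly. When a myeloid precursor matures, it leaves the cell cycle and builds lysosomes, granules, the phagocyte oxidase and surface receptors. In MLL-rearranged leukemia the immature state is held by HOXA genes and MEIS1, and mutant FLT3 adds a growth signal through STAT5.

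The differences between JOA and control were small and are described over gene lists, which were chosen with earlier results of these data known. Genes of a list can differ together between libraries of the same group, so that list members are not separate replicates. Genes of DNA replication, mitosis and recombination were lower with JOA in nearly every case, by about 0.1 on the log2 scale, and so were the genes of the ATF4 amino acid response. Genes of the lysosome, of the phagocyte oxidase, of the myeloid cell surface and of the NRF2 response were mostly higher. No single gene passed the test: limma on log2(FPKM + 0.1), with same-numbered libraries as pairs, gave 0 genes of 9686 (0%) that met both an adjusted p under 0.05 and a log2 fold change of 0.58 or more in size, and the smallest adjusted p was 0.164. At an unadjusted p under 0.05 there were 1181 genes (12.2%), of which 722 (7.45% of those tested) were higher with JOA and 459 (4.74%) lower. Without the pairing, 0 genes were called and 396 had an unadjusted p under 0.05. The study, which used DESeq, reported genes both higher and lower in this line, so that the 0 applies to the fit and filter used here. The higher genes were 61.1% of those at an unadjusted p under 0.05, and 50% when the median of every library was set equal.

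The median absolute log2 fold change was 0.060, 90 percent of genes lay under 0.17 and 99 percent under 0.37. A log2 fold change of 0.58 or more in size was seen for 21 genes (0.217%), of which 12 had a mean between 1 and 2 FPKM. Of these 21 genes, 16 had an unadjusted p under 0.05. The other 5 were BOLA2, C12orf75, CD99, PLA2G4B and SLX1B, named here after their values were seen. BOLA2 was at 10.2 FPKM in control library 2 and at 0 in the other libraries, and SLX1B was at 6.24 FPKM in JOA library 3 and between 0.121 and 0.428 FPKM in the rest. CD99 was at 0.356 FPKM in JOA library 2 and between 3.53 and 5.79 FPKM in the rest. BOLA2, PLA2G4B and SLX1B have near-identical copies or overlapping neighbours, so that their reads may be divided differently between libraries.

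**Figure D1:**
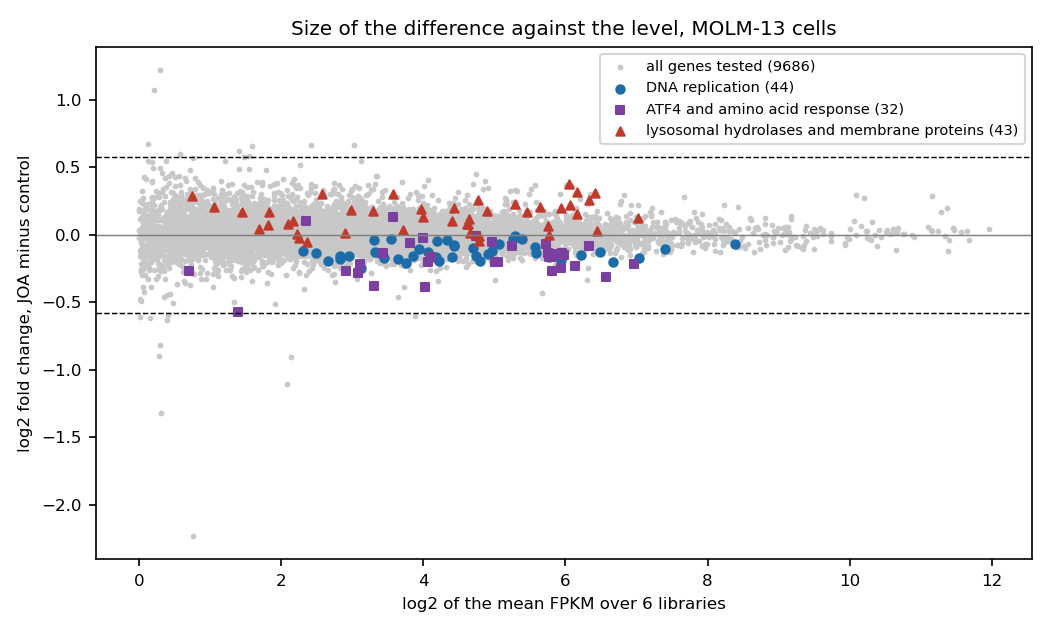
Each point is a gene tested in MOLM-13 cells, with the log2 of its mean FPKM over 6 libraries on the x axis and its log2 fold change (JOA minus control, on log2(FPKM + 0.1)) on the y axis. Dashed lines mark 0.58 in both directions, the DNA replication genes lie below 0, most lysosomal genes above it, and the 21 genes past the lines are mostly lowly expressed.

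The libraries expressed the markers of a myeloid line and a few genes from the marker lists of other cell types. Of 14 myeloid markers, 12 averaged at least 1 FPKM, and this held for 0 of 8 B cell markers and 0 of 10 fibroblast and endothelial markers. Of 10 T and NK cell markers, NKG7, CD3D and NCAM1 averaged 1 FPKM or more, NKG7 at 25.5 to 29.6 FPKM being above CD33 and MPO, while CD3G, CD2, TRAT1 and KLRD1 were at 0 in all 6 libraries. Of 8 epithelial markers KRT8 and KRT18 averaged 1 FPKM or more, KRT18 at 6.83 to 8.203 FPKM, with EPCAM at 0. Of 14 erythroid and megakaryocytic markers EPOR alone did, at 5.55 to 7.32 FPKM, with HBB at 0. Between any 2 libraries the log2 values correlated at 0.989 to 0.996.

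Same-numbered libraries resembled each other. After removing the group means, control and JOA libraries of one number correlated across genes at 0.5804, 0.407 and 0.448, and those of different numbers at -0.389 to 0.0676. Removing the means makes the deviations within a group cancel out for each gene. Positive values for same numbers thus force lower ones for different numbers. The pairs also differed from each other in several gene groups. In control library 1 the DNA replication genes were 0.19 above their mean over the 6 libraries (median of 44 genes, log2 scale), against -0.0079 and 0.011 in control libraries 2 and 3, and the 9 genes of the metallothionein list were 0.69 above, against -0.042 and -0.29. The ATF4 genes ran the other way, at -0.29 in control library 1, 0.51 in control library 2 and 0.0041 in control library 3. This range of 0.80 between controls was larger than the difference between JOA and control in the same list. Whether these differences between control libraries have a part in the results below was not tested.

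**Figure D2:**
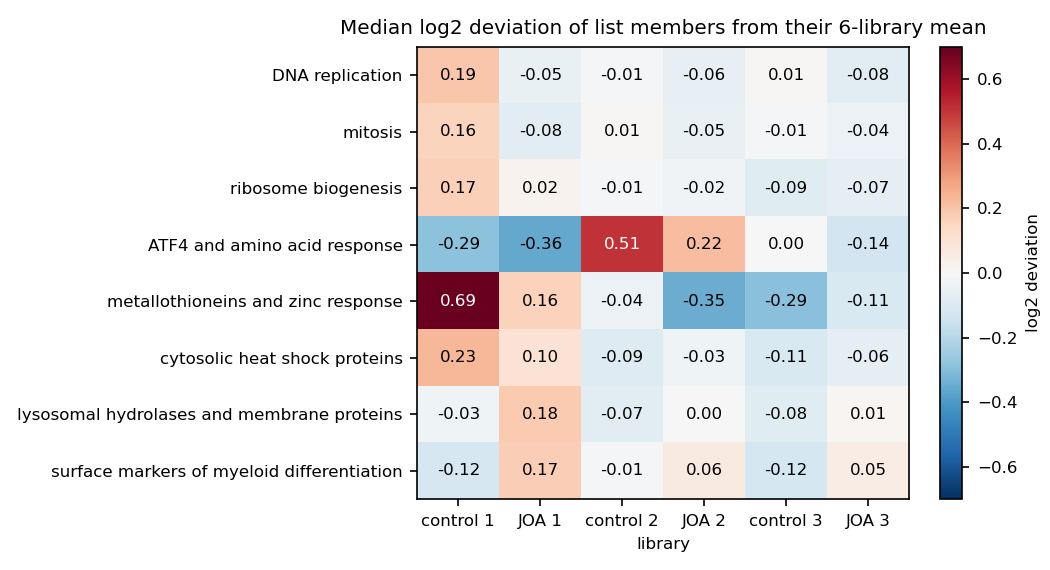
Rows are gene lists and columns the 6 MOLM-13 libraries by pair, and each cell gives the median over list members of the log2 deviation from the gene's mean over 6 libraries. Control 1 stands at 0.19 for DNA replication and 0.69 for metallothioneins, and control 2 at 0.51 for the ATF4 list, while the lysosomal and surface lists are higher in the JOA library of each pair.

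**Figure D3:**
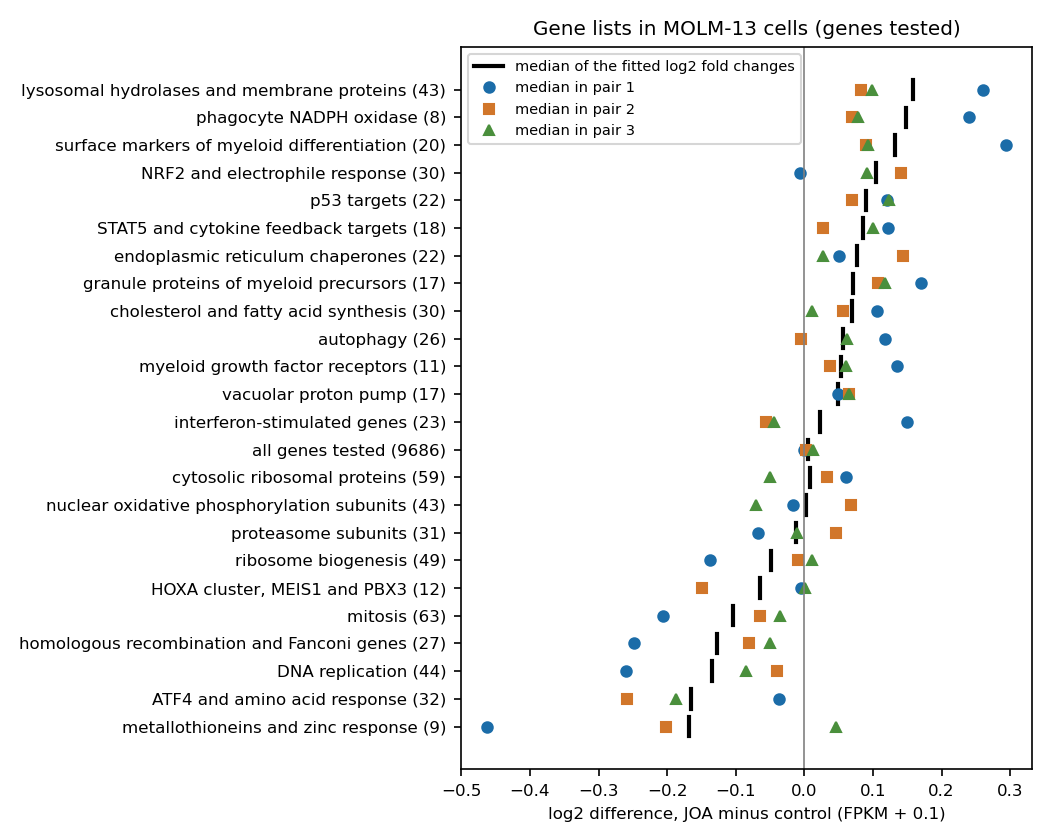
For 23 gene lists and for all genes tested, the black bar is the median log2 fold change (JOA minus control) and the symbols are the medians of the differences within pairs 1, 2 and 3, with the number of genes in parentheses. Proliferation lists and the ATF4 list lie to the left and lysosomal and myeloid lists to the right of all genes tested, and pair 1 is the farthest from 0 in most of the lists of both kinds.

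The lists are described by counts, set beside all genes tested, of which 47.6% were lower with JOA and 52.4% higher, with a median log2 fold change of 0.0049. Lower in all 3 pairs were 1563 genes (16.1%), and higher in all 3 pairs 1857 (19.2%). The 3 JOA values lay wholly below the 3 control values for 452 genes (4.67%) and wholly above for 505 (5.21%). Of the 47 functional lists, 33 had a median above 0 and 14 below, and in 35 the difference was the farthest from 0 in pair 1. With 3 pairs an exact two-sided sign-flip test cannot go below p = 0.25, so no single value is tested in that way. Nothing in the labels says that libraries of one group came from separate cultures, so p-values may not measure the spread between cultures. They rest on the differences within these pairs and on a variance that limma draws from all genes tested. The residual degrees of freedom were 2 and the prior ones 5.97.

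All 44 genes of DNA replication had lower mean log2 values with JOA. Their median log2 fold change was -0.13, with a range from -0.24 to -0.010, and the medians in pairs 1, 2 and 3 were -0.26, -0.039 and -0.085. In all 3 pairs 27 of the 44 were lower, for 18 the groups did not overlap, and 20 had an unadjusted p under 0.05, against 8 without the pairing. Leaving out pair 1, where control library 1 stood high, brought the median to -0.064, with 41 of 44 genes still lower and 4 at an unadjusted p under 0.05. In bulk RNA, fewer dividing cells and less of these transcripts in each cell cannot be told apart.

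MCM6, a subunit of the replicative helicase, had the smallest p of the list. Its level was 65.8, 64.9 and 64.3 FPKM in the controls and 54.6, 59.4 and 57.5 FPKM with JOA, given here and below in the order of libraries 1 to 3. The groups did not overlap, and the log2 fold change was -0.19 ± 0.047 (SE, n = 3 pairs, adjusted p = 0.278). Here and below, SE is limma's moderated value, which also draws on the spread of other genes. It can be smaller or larger than the SE of the 3 pair differences alone. MCM2, of the same helicase, was at 63.4, 55.1 and 54.4 FPKM in the controls and 52.5, 51.9 and 49.8 FPKM with JOA, a difference of -0.16 ± 0.05 (SE). RFC4, a subunit of the clamp loader, measured 28.8, 28.9 and 27.3 FPKM in the controls and 25.5, 26.1 and 24.7 FPKM with JOA, and its pairs differed by -0.17, -0.15 and -0.14, the most even of these genes. POLA1, the catalytic subunit of the primase-coupled polymerase, was at 7.03, 6.84 and 6.41 FPKM in the controls and 5.82, 6.07 and 5.83 FPKM with JOA, or -0.19 ± 0.058 (SE). ORC1, part of the origin recognition complex, was at 15.7, 13.8 and 14.04 FPKM in the controls and 11.95, 12.8 and 12.8 FPKM with JOA. For RRM2, a subunit of ribonucleotide reductase, the values were 122, 104 and 101 FPKM in the controls and 92.6, 94.8 and 96.2 FPKM with JOA, with control library 1 the highest of the 6. None of these genes passed the adjusted test, and each had JOA values wholly below its control values.

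The promoters of these genes are shown because E2F, the factor that switches on S phase genes, binds a short motif that many of them share. TTTGGCGC, TTTCCCGC, TTTCGCGC or TTTGCCGC was searched on both strands in the RefSeq promoters (build GRCh38.p14), from 250 bases before to 50 after the start site. Of the 38 replication genes with a promoter in that set, 20 (52.6%) held a match, against 5.9% of the 7804 promoters of tested genes and 3.3% of all 27305. A match is a run of letters and not a measured binding site. Stretches of 60 bases upstream of the start site are given on the gene's strand with every matching letter in capitals, for MCM6 at chr2:135876562-135876621 (minus strand, 2 of the motifs overlapping) and POLA1 at chrX:24693755-24693814 (plus strand, matched on the other strand).
MCM6: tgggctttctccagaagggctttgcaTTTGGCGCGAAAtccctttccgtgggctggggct
POLA1: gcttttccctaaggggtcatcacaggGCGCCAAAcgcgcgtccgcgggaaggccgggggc

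Of 63 mitosis genes, 59 were lower and 4 higher, with a median of -0.10 and pair medians of -0.21, -0.065 and -0.036. Lower in all 3 pairs were 35 genes, 20 did not overlap between groups, and 22 had an unadjusted p under 0.05, all of them lower (14 without the pairing). Without pair 1 the median was -0.045, 46 of 63 genes were lower and 11 of them had an unadjusted p under 0.05. TPX2, which activates Aurora A on the spindle, was at 42.5, 41.6 and 37.7 FPKM in the controls and 36.8, 37.1 and 34.2 FPKM with JOA, a log2 fold change of -0.17 ± 0.043 (SE, n = 3 pairs, adjusted p = 0.2802). TOP2A, the topoisomerase that untangles sister chromatids, was at 66.6, 66.9 and 67.1 FPKM in the controls and 56.7, 60.4 and 61.6 FPKM with JOA. Its 3 controls were almost level and all 3 JOA values were below them. FOXM1, the transcription factor of the G2 and M phase genes, was lower by a like amount in each pair (-0.17, -0.16 and -0.18), although its groups overlapped at 16.5, 15.5 and 14.5 FPKM in the controls and 14.7, 13.8 and 12.8 FPKM with JOA. SMC4, a condensin subunit, was at 60.4, 58.5 and 55.8 FPKM in the controls and 49.5, 52.7 and 52.03 FPKM with JOA, and ASPM, a spindle pole protein, at 12.1, 11.6 and 11.5 FPKM in the controls and 9.45, 10.2 and 10.8 FPKM with JOA. The groups did not overlap for either gene.

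Many genes of mitosis are held off in resting cells through the cell cycle homology region, a short promoter motif. As above, a match is not a measured site. TTTGAA was found on either strand in 35 of the 53 mitosis promoters in the RefSeq set (66.0%), and in 9.6% of the promoters of tested genes and 15.4% of all. The stretches shown are TOP2A at chr17:40418058-40418117 (minus strand) and ASPM at chr1:197146750-197146809 (minus strand, matched on the other strand), with the matching letters in capitals.
TOP2A: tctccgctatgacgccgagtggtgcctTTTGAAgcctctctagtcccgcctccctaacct
ASPM: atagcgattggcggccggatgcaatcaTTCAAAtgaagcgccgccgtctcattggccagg

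The 27 genes of homologous recombination and the Fanconi pathway, which repair broken or crosslinked DNA in dividing cells, were all lower, with a median of -0.13 and pair medians of -0.25, -0.081 and -0.050. Of these, 19 were lower in all 3 pairs, 13 did not overlap between groups and 9 had an unadjusted p under 0.05 (5 without the pairing). Without pair 1 the median was -0.061, with 26 of 27 genes lower and 2 of them at an unadjusted p under 0.05. XRCC2, which acts in strand exchange, was at 7.27, 7.28 and 8.53 FPKM in the controls and 5.71, 6.28 and 7.46 FPKM with JOA, and its log2 fold change was -0.25 ± 0.058 (SE, n = 3 pairs, adjusted p = 0.232). FANCD2, which is ubiquitinated at crosslinks, was at 8.83, 9.32 and 9.69 FPKM in the controls and 7.905, 8.39 and 7.74 FPKM with JOA, or -0.21 ± 0.058 (SE). BRCA2, a breast cancer susceptibility protein that mediates strand exchange, was at 6.33, 6.18 and 6.199 FPKM in the controls and 5.03, 5.41 and 5.86 FPKM with JOA. FANCG, of the Fanconi core complex, was at 7.99, 7.25 and 6.82 FPKM in the controls and 6.35, 6.44 and 6.38 FPKM with JOA. The JOA values of FANCD2, BRCA2 and FANCG were below every control, while those of XRCC2 were lower within each pair but overlapped across pairs.

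Against this, CDKN1A was higher. It encodes p21, the p53-induced inhibitor of the kinases that drive S phase, and it is a member both of the p53 list and of the list of G1 cyclins and CDK inhibitors. CDKN1A was at 100.2, 101 and 98.8 FPKM in the controls and 124, 116 and 117 FPKM with JOA. The 3 controls were close together and every JOA value was above them, and the log2 fold change was 0.25 ± 0.045 (SE, n = 3 pairs, adjusted p = 0.164). Of 22 p53 targets, 19 were higher, 11 in all 3 pairs, with a median of 0.090 and pair medians of 0.12, 0.070 and 0.12. At an unadjusted p under 0.05 there were 8 higher and 1 lower, and 2 higher without the pairing. Leaving out pair 2 gave 5 higher and pair 3 gave 4 higher, with 0 lower in either. SESN1, a stress-induced inhibitor of mTORC1 signalling, was at 19.7, 19.6 and 18.7 FPKM in the controls and 22.01, 23.5 and 21.4 FPKM with JOA, and BAX, a pore-forming apoptosis protein, at 75.6, 70.8 and 72.01 FPKM in the controls and 90.4, 77.99 and 75.9 FPKM with JOA. Neither overlapped between groups. MDM2, the ligase that degrades p53, differed by 0.11 ± 0.045 (SE) and its groups overlapped. SESN2, which both p53 and ATF4 induce, was the lower one at that threshold, at 4.33, 14.5 and 9.93 FPKM in the controls and 4.76, 10.3 and 6.96 FPKM with JOA. Of the 20 tested members of the G1 list, 15 were lower, among them RB1 at -0.12 ± 0.045 and RBL1 at -0.16 ± 0.059 (SE), both pocket proteins that hold E2F.

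The genes of the ATF4 response, which supply amino acids and charged transfer RNA under stress, were lower in 30 of 32 cases. The median was -0.17, the largest of the lists above, and the pair medians were -0.037, -0.26 and -0.19. Unlike the proliferation lists, this list was nearest 0 in pair 1, where its level was already lowest in the control. At an unadjusted p under 0.05 were 20 genes lower and 1 higher. Without the pairing none of the 32 was at an unadjusted p under 0.05. For none of the 32 genes did the groups separate. Leaving out pair 1 gave 28 lower genes at an unadjusted p under 0.05, of 33 then tested, and leaving out pair 2 gave 11 of 31.

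PSAT1, an enzyme of serine synthesis, was at 63.04, 164 and 92.2 FPKM in the controls and 53.3, 125 and 74.9 FPKM with JOA. Control library 2 was the highest and control library 1 the lowest of the controls, and yet each JOA library lay below its own control, by -0.24, -0.39 and -0.30. The log2 fold change was -0.31 ± 0.047 (SE, n = 3 pairs, adjusted p = 0.164). PHGDH, the first enzyme of the same pathway, was at 7.33, 17.7 and 9.06 FPKM in the controls and 5.93, 12.2 and 7.39 FPKM with JOA, or -0.37 ± 0.064 (SE). ASNS, asparagine synthetase, was at 9.13, 32.9 and 14.1 FPKM in the controls and 8.23, 23.04 and 10.1 FPKM with JOA, with the smallest difference in pair 1. SLC7A5, a transporter of large neutral amino acids, was at 47.2, 86.1 and 51.3 FPKM in the controls and 39.9, 65.98 and 45.5 FPKM with JOA, and its partner SLC3A2 at 48.1, 74.6 and 54.8 FPKM in the controls and 44.2, 68.5 and 46.1 FPKM with JOA. GPT2, a mitochondrial alanine aminotransferase outside the fixed lists, was named after its values were seen because it had the smallest unadjusted p of all genes. It was at 11.8, 19.9 and 13.6 FPKM in the controls and 9.26, 14.7 and 10.5 FPKM with JOA, a log2 fold change of -0.38 ± 0.049 (SE, n = 3 pairs, adjusted p = 0.164).

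ATF4 itself was at 53.5, 76.4 and 64.7 FPKM in the controls and 48.8, 70.1 and 58.2 FPKM with JOA, lower by -0.13, -0.12 and -0.15 in the 3 pairs. ATF5 was the 1 member that was higher at an unadjusted p under 0.05, at 12.1, 10.4 and 11.5 FPKM in the controls and 13.4, 11.3 and 12.6 FPKM with JOA. SLC7A11, the cystine transporter that feeds glutathione synthesis, differed the most in this list. It was at 0.956, 5.37 and 3.49 FPKM in the controls and 0.836, 3.21 and 1.95 FPKM with JOA, a log2 fold change of -0.57 ± 0.13 (SE, n = 3 pairs, adjusted p = 0.225). CHAC1, which breaks down glutathione, was at 0.166, 3.78 and 1.63 FPKM in the controls and 0.181, 2.92 and 1.103 FPKM with JOA, near 0 in both libraries of pair 1. TRIB3, a pseudokinase induced by ATF4, was at 11.7, 25.1 and 17.7 FPKM in the controls and 11.8, 19.6 and 14.9 FPKM with JOA, and its pair 1 difference was 0.0084. The C/EBP-ATF response element, searched as TGATGNAA on both strands, was in 4 of the 21 promoters of this list found in the RefSeq set (19%). It was in 1.6% of the promoters of tested genes and in 3.7% of all.

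**Figure D4:**
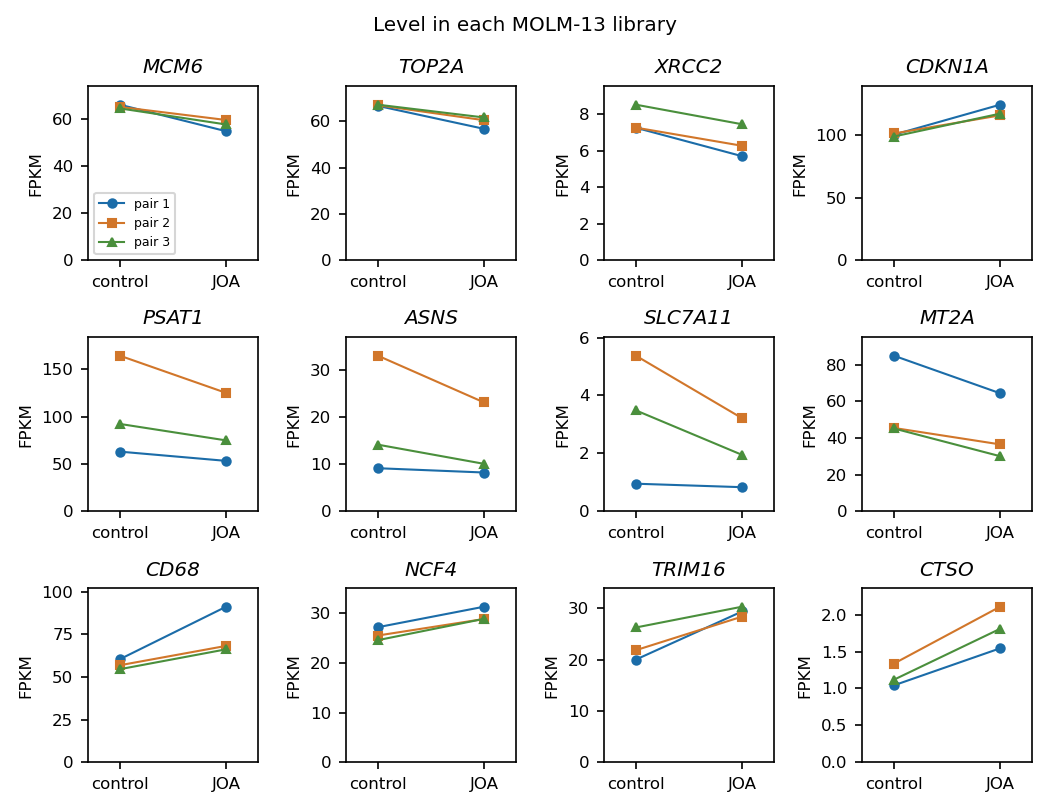
FPKM of 12 genes in the 6 MOLM-13 libraries (y axes start at 0), with a line joining the control and JOA library of each pair. MCM6, TOP2A and CDKN1A have tight controls with every JOA value on one side, whereas PSAT1, ASNS, SLC7A11 and MT2A differ more between pairs than within them.

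Genes of the lysosome were higher. Of 43 hydrolases and membrane proteins, 38 were higher and 5 lower, with a median of 0.16 and pair medians of 0.26, 0.083 and 0.098. Higher in all 3 pairs were 23 genes, 9 did not overlap between groups, and 20 had an unadjusted p under 0.05, all of them higher (9 without the pairing). Without pair 1 the median was 0.091 and 34 of 43 genes were higher. GAA, the acid alpha-glucosidase that breaks down glycogen, was at 10.9, 10.9 and 10.2 FPKM in the controls and 14.1, 13.6 and 12.01 FPKM with JOA. Its groups did not overlap and its log2 fold change was 0.31 ± 0.052 (SE, n = 3 pairs, adjusted p = 0.164). CD68, a lysosomal glycoprotein of macrophages, was at 60.5, 56.96 and 54.6 FPKM in the controls and 91.3, 68.3 and 66.3 FPKM with JOA, with JOA library 1 far above the rest. Its log2 fold change was 0.38 ± 0.068 (SE, n = 3 pairs, adjusted p = 0.164). NPC2, which exports cholesterol from the lysosome, was at 23.6, 23.2 and 27.4 FPKM in the controls and 30.2, 27.3 and 31.2 FPKM with JOA, and CTSZ, a cathepsin, at 83.1, 68.9 and 75.4 FPKM in the controls and 118, 83.1 and 83.4 FPKM with JOA. PSAP, the precursor of the saposins, was at 53.1, 66.6 and 71.5 FPKM in the controls and 83.00, 73.3 and 80.5 FPKM with JOA, and CTSD, the aspartyl cathepsin, at 78.9, 69.99 and 69.4 FPKM in the controls and 114, 77.9 and 74.3 FPKM with JOA. CTSO, a cathepsin outside this list, is one of the 10 genes that were higher by the most, at 1.04, 1.34 and 1.118 FPKM in the controls and 1.54, 2.11 and 1.81 FPKM with JOA, and its 3 pairs were alike (0.52, 0.62 and 0.65).

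The CLEAR element, through which TFEB and TFE3 act on lysosomal genes, was searched as CACGTGAC on both strands. It was in 6 of the 29 promoters of this list found in the RefSeq set (20.7%), against 4.9% for tested genes and 2.5% for all. It is shown for GAA at chr17:80101477-80101536 and LAMP1, a lysosomal membrane protein, at chr13:113297019-113297078, both on the plus strand and with the matching letters in capitals. In GAA the letters match on both strands, and LAMP1 has 2 matches.
GAA: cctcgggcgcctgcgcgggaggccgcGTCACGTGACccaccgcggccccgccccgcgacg
LAMP1: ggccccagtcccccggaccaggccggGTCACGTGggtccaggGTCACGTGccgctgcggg

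LAMP1 was at 143, 113 and 116 FPKM in the controls and 155, 127 and 123 FPKM with JOA, a difference of 0.12 ± 0.044 (SE). TFE3 itself was at 6.87, 6.31 and 5.59 FPKM in the controls and 8.59, 7.57 and 7.02 FPKM with JOA. Its groups did not overlap, its pairs differed by 0.32, 0.26 and 0.32, and the log2 fold change was 0.30 ± 0.054 (SE, n = 3 pairs, adjusted p = 0.164). The 17 subunits of the vacuolar proton pump, which acidifies the lysosome, had a median of 0.049, with 15 higher and 4 at an unadjusted p under 0.05. Without pair 2 the median was 0.024, and without pair 1 or pair 3 there were 2 at that threshold. Of 26 autophagy genes 20 were higher, with a median of 0.057 and 3 at an unadjusted p under 0.05, and the median was 0.019 without pair 1 and 0.089 without pair 2. SQSTM1, the autophagy receptor p62, was at 32.4, 31.8 and 34.2 FPKM in the controls and 40.2, 35.7 and 39.5 FPKM with JOA and did not overlap.

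The list of surface markers of myeloid differentiation also holds precursor genes such as CD33. With JOA, 19 of its 20 tested genes were higher, with a median of 0.13 and pair medians of 0.29, 0.090 and 0.094. Of these, 11 were higher in all 3 pairs, 7 did not overlap between groups, and 10 had an unadjusted p under 0.05 (5 without the pairing). ITGAM, which encodes the CD11b chain of the complement receptor, was at 2.27, 3.14 and 3.21 FPKM in the controls and 4.197, 3.63 and 3.498 FPKM with JOA. Control library 1 was the lowest, every JOA value was above every control, and the log2 fold change was 0.39 ± 0.14 (SE, n = 3 pairs, adjusted p = 0.339). CD33, a sialic acid receptor of myeloid precursors, was at 21.3, 22.2 and 20.7 FPKM in the controls and 24.04, 23.6 and 23.3 FPKM with JOA and did not overlap. CD38 was at 5.303, 9.23 and 11.97 FPKM in the controls and 10.9, 9.91 and 13.6 FPKM with JOA, with most of its difference in pair 1. CD1D, which presents lipids, was at 4.31, 4.81 and 4.64 FPKM in the controls and 6.41, 5.39 and 5.37 FPKM with JOA, and TREM2, a lipid receptor of macrophages, at 4.39, 5.43 and 4.16 FPKM in the controls and 6.97, 5.67 and 5.61 FPKM with JOA. CD300LF, an inhibitory receptor, was at 5.396, 6.09 and 4.83 FPKM in the controls and 6.76, 6.93 and 5.55 FPKM with JOA, higher in each pair but overlapping.

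All 8 components of the phagocyte NADPH oxidase, which makes superoxide, were higher, with a median of 0.15. At an unadjusted p under 0.05 were 4 of them. NCF4 (p40phox), a cytosolic subunit, was at 27.1, 25.4 and 24.5 FPKM in the controls and 31.2, 28.8 and 28.8 FPKM with JOA. Its groups did not overlap and the log2 fold change was 0.20 ± 0.044 (SE, n = 3 pairs, adjusted p = 0.225). CYBB, the catalytic subunit, was at 4.85, 5.75 and 7.92 FPKM in the controls and 8.32, 7.13 and 8.13 FPKM with JOA, and pair 3 differed by only 0.038. NCF1 (p47phox) was at 20.3, 26.7 and 28.7 FPKM in the controls and 35.6, 27.9 and 36.1 FPKM with JOA and is uncertain, since near-identical pseudogenes may share its reads.

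Of 17 granule proteins of myeloid precursors, a list apart from the surface markers, 14 were higher. Of these, 8 had an unadjusted p under 0.05, and 1 of the 3 lower ones did too. SRGN, the proteoglycan that packs granules, was at 1045, 824 and 1075 FPKM in the controls and 1364, 1072 and 1176 FPKM with JOA. AZU1 (azurocidin) was at 1053, 1057 and 1067 FPKM in the controls and 1496, 1139 and 1228 FPKM with JOA, with almost level controls and no overlap. CFD, the complement protease, was at 171, 182 and 195 FPKM in the controls and 238, 201 and 228 FPKM with JOA. ELANE, neutrophil elastase, was at 353, 284 and 313 FPKM in the controls and 446, 308 and 353 FPKM with JOA and PRTN3, proteinase 3, at 2804, 2023 and 2212 FPKM in the controls and 3267, 2249 and 2431 FPKM with JOA, and both overlapped. MPO, myeloperoxidase of early granules, was that gene, at 22.02, 19.1 and 20.7 FPKM in the controls and 20.3, 16.8 and 18.9 FPKM with JOA, or -0.14 ± 0.046 (SE).

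Of 22 transcription factors of the lineage 12 were higher, with a median of 0.032 that ranged from 0.012 without pair 3 to 0.083 without pair 2. Of these, 4 had an unadjusted p under 0.05, all of them higher. CEBPD, a C/EBP factor of maturing monocytes, was at 95.9, 99.3 and 105 FPKM in the controls and 132, 107 and 115 FPKM with JOA without overlap. Of 12 tested genes in the list of the HOXA cluster, MEIS1 and PBX genes, 9 were lower, with a median of -0.065 (-0.016 without pair 2), and 1 had an unadjusted p under 0.05. HOXA10 was that gene, at 21.95, 23.2 and 19.3 FPKM in the controls and 20.2, 19.3 and 19.1 FPKM with JOA. HOXA9 was at 48.01, 56.9 and 48.2 FPKM in the controls and 52.7, 57.7 and 48.6 FPKM with JOA, a log2 fold change of 0.056 ± 0.046 (SE, n = 3 pairs, adjusted p = 0.663), and MEIS1 at 10.7, 11.2 and 9.65 FPKM in the controls and 10.8, 10.2 and 9.09 FPKM with JOA, or -0.07 ± 0.053 (SE, n = 3 pairs, adjusted p = 0.633). Of 11 myeloid growth factor receptors 8 were higher, with a median of 0.053, and 4 had an unadjusted p under 0.05. Without pair 1 the median was 0.012, and without pair 3 only 1 had an unadjusted p under 0.05. FLT3 was at 76.2, 92.1 and 96.4 FPKM in the controls and 89.7, 88.9 and 94.4 FPKM with JOA, with a difference of 0.051 ± 0.062 (SE) that turns to -0.041 without pair 1. CSF3R, the receptor for G-CSF, was at 24.5, 27.5 and 27.4 FPKM in the controls and 39.04, 31.6 and 30.6 FPKM with JOA, with every JOA value above every control. Of 18 STAT5 and cytokine feedback targets, 12 were higher, 10 in all 3 pairs, with a median of 0.085 and 4 at an unadjusted p under 0.05. CISH, a feedback inhibitor of STAT5, was at 6.104, 7.63 and 7.91 FPKM in the controls and 9.35, 8.64 and 9.74 FPKM with JOA. SOCS1, a like inhibitor, was at 13.8, 15.9 and 13.4 FPKM in the controls and 21.1, 16.4 and 20.1 FPKM with JOA, and only 0.042 apart in pair 2. Neither CISH nor SOCS1 overlapped. PIM1, a kinase induced by STAT5, was at 35.8, 71.7 and 65.5 FPKM in the controls and 69.7, 74.2 and 70.9 FPKM with JOA, with control library 1 far below the other 5 libraries.

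Genes of the NRF2 response, which detoxify electrophiles and make NADPH, were higher in 25 of 30 cases, with a median of 0.10. The pair medians were -0.0069, 0.14 and 0.091, so that pair 1 was at about 0. At an unadjusted p under 0.05 there were 10 higher and 1 lower (5 and 0 without the pairing). PGD, an NADPH-making enzyme of the pentose phosphate pathway, was at 123, 117 and 121 FPKM in the controls and 150.2, 134 and 137 FPKM with JOA. TRIM16, a ubiquitin ligase, was at 20.04, 21.9 and 26.3 FPKM in the controls and 29.4, 28.4 and 30.3 FPKM with JOA without overlap, and its log2 fold change was 0.38 ± 0.066 (SE, n = 3 pairs, adjusted p = 0.164). FTL, the ferritin light chain, was among the most abundant transcripts, at 2352, 1993 and 1829 FPKM in the controls and 2941, 2463 and 2159 FPKM with JOA. HMOX1, heme oxygenase, was at 2.35, 1.200 and 0.988 FPKM in the controls and 2.33, 1.800 and 1.72 FPKM with JOA, with no difference in pair 1 (-0.016) and 0.55 and 0.74 in pairs 2 and 3. SLC7A11, described above, belongs to this list too and was its lower member at an unadjusted p under 0.05.

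The antioxidant response element, searched as TGACNNNGC on both strands, was in 7 of the 23 promoters of the NRF2 list found in the RefSeq set (30.4%), but 15.7% of the promoters of tested genes held it as well. It is shown for PGD at chr1:10398838-10398897 (plus strand, matched on the other strand) and ME1, malic enzyme, at chr6:83431154-83431213 (minus strand). ME1 was at 2.75, 2.58 and 2.11 FPKM in the controls and 2.79, 3.05 and 3.103 FPKM with JOA.
PGD: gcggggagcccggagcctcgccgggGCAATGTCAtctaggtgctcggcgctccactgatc
ME1: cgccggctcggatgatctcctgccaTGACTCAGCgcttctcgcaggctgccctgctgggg

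The metallothioneins and zinc genes, which buffer metals, were lower in 8 of 9 cases, with a median of -0.17, but the pairs differed widely, at -0.46, -0.20 and 0.046. MT2A was at 84.8, 45.5 and 45.2 FPKM in the controls and 64.4, 36.5 and 30.1 FPKM with JOA. It was lower in each pair and its log2 fold change was -0.43 ± 0.058 (SE, n = 3 pairs, adjusted p = 0.164). MT1X was at 119.5, 85.1 and 61.8 FPKM in the controls and 85.2, 59.2 and 62.1 FPKM with JOA, and MT1E at 23.96, 12.9 and 8.09 FPKM in the controls and 12.1, 8.33 and 9.51 FPKM with JOA, both with no lower value in pair 3. The family members share sequence, so that reads may be divided between them. The list median was -0.021 without pair 1 and -0.34 without pair 3, and 3 genes were lower at an unadjusted p under 0.05, against 5 without pair 3. Of 23 cytosolic heat shock proteins, 12 were higher and 11 lower, with a median of 0.012 that turned below 0 under median centring, quantile normalization and without pair 2 or 3. The heat-inducible HSPA1B was at 13.1, 6.03 and 7.05 FPKM in the controls and 15.1, 9.26 and 10.03 FPKM with JOA, a log2 fold change of 0.44 ± 0.078 (SE, n = 3 pairs, adjusted p = 0.164), and its near-identical copy HSPA1A at 1.65, 1.122 and 0.935 FPKM in the controls and 2.36, 1.42 and 1.38 FPKM with JOA. Both were higher in each pair. Of 22 chaperones of the endoplasmic reticulum 19 were higher, with a median of 0.077, and 5 had an unadjusted p under 0.05 (1 without pair 2). DNAJB9 was among them, at 5.08, 4.23 and 4.68 FPKM in the controls and 7.496, 4.92 and 5.67 FPKM with JOA.

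Of 30 genes of cholesterol and fatty acid synthesis 27 were higher, 13 in all 3 pairs, with a median of 0.070 and 6 at an unadjusted p under 0.05. Without pair 1 the median was 0.029, with 19 higher and 3 of them at that threshold. FASN, the fatty acid synthase, was at 52.8, 54.3 and 55.02 FPKM in the controls and 75.8, 62.7 and 62.1 FPKM with JOA without overlap, and FADS2, a desaturase, at 33.5, 39.01 and 52.4 FPKM in the controls and 60.4, 45.6 and 53.8 FPKM with JOA. SCD, another desaturase, was at 165, 212 and 259 FPKM in the controls and 241, 206 and 260.1 FPKM with JOA, a difference that lay in pair 1 and was -0.017 without it. Of 23 interferon-stimulated genes 15 were higher, with 4 higher and 2 lower at an unadjusted p under 0.05, and 10 were higher without pair 1. IFITM1, which blocks virus entry, was lower at 1.67, 1.495 and 1.59 FPKM in the controls and 0.927, 0.705 and 0.968 FPKM with JOA, the groups did not overlap, and its log2 fold change was -0.81 ± 0.12 (SE, n = 3 pairs, adjusted p = 0.164). It belongs to a family of near-identical genes. XAF1 was also lower, at 4.86, 9.62 and 7.56 FPKM in the controls and 4.205, 6.99 and 6.395 FPKM with JOA, and TRIM22 higher, at 29.2, 30.6 and 26.3 FPKM in the controls and 32.5, 34.3 and 30.03 FPKM with JOA.

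The large housekeeping groups lay near the level of all genes. The median was 0.0084 for 59 cytosolic ribosomal proteins, 0.0018 for 43 nuclear subunits of oxidative phosphorylation and -0.012 for 31 proteasome subunits. The first 2 medians turned below 0 under TPM rescaling, median centring and quantile normalization. By limma 0, 1 and 0 genes of the 3 lists had an unadjusted p under 0.05, while without pair 3 there were 10 higher and 3 lower ribosomal protein genes and 6 higher and 2 lower oxidative phosphorylation genes. Of 49 ribosome biogenesis genes 37 were lower, with a median of -0.048 that came from pair 1 (-0.14, -0.0093 and 0.012). Only 4 MHC class II genes passed the filter of 1 FPKM, and none of the 4 had an unadjusted p under 0.05.

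The 10 genes that were higher by the most, among those at an unadjusted p under 0.05 and higher in each pair, were CYP27A1, HIST1H2AC, FGR, SEMA6B, CTSO, PTAFR, LRMDA, C19orf38, FBP1 and LRFN3. The difference was largest in pair 1 for 7 of the 10. CYP27A1, a sterol hydroxylase, was at 3.23, 3.12 and 5.71 FPKM in the controls and 10.02, 3.94 and 6.01 FPKM with JOA, with JOA library 1 the highest by far, and the log2 fold change was 0.67 ± 0.24 (SE, n = 3 pairs, adjusted p = 0.351). Its pairs differed by 1.60, 0.33 and 0.072, more widely than this moderated SE conveys. FGR, a SRC family kinase of myeloid cells, was at 1.42, 2.88 and 2.83 FPKM in the controls and 4.25, 3.39 and 3.35 FPKM with JOA. Its groups did not overlap and control library 1 stood low. SEMA6B, a semaphorin, was at 1.77, 2.11 and 2.33 FPKM in the controls and 3.899, 2.77 and 3.09 FPKM with JOA, and PTAFR, the receptor for platelet-activating factor, at 2.14, 2.38 and 2.43 FPKM in the controls and 3.91, 3.26 and 3.42 FPKM with JOA. Neither overlapped, and the log2 fold change of PTAFR was 0.59 ± 0.10 (SE, n = 3 pairs, adjusted p = 0.164). LRMDA was at 2.48, 2.21 and 1.95 FPKM in the controls and 2.77, 3.54 and 3.81 FPKM with JOA and C19orf38 at 1.07, 1.72 and 1.297 FPKM in the controls and 2.05, 1.997 and 2.05 FPKM with JOA. FBP1, a gluconeogenic phosphatase, was at 5.701, 6.21 and 8.99 FPKM in the controls and 13.5, 6.98 and 10.8 FPKM with JOA. HIST1H2AC, a histone of a family with near-identical members, was at 3.57, 9.46 and 6.56 FPKM in the controls and 10.6, 9.64 and 8.81 FPKM with JOA, with almost no difference in pair 2 (0.027). HIST1H2BK, of the same cluster, was at 20.3, 22.4 and 25.3 FPKM in the controls and 32.4, 29.2 and 31.3 FPKM with JOA without overlap.

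The 10 that were lower by the most were POLR2J3, CCL3L3, G0S2, IFITM1, BATF3, SHISA2, KRT8, SLC7A11, ZHX1-C8orf76 and HIST1H2BH, of which 3 were farthest apart in pair 1, 5 in pair 2 and 2 in pair 3. SHISA2 was at 19.6, 13.9 and 19.9 FPKM in the controls and 10.01, 11.2 and 13.6 FPKM with JOA. It was the best expressed of the 10, its groups did not overlap, and the log2 fold change was -0.60 ± 0.11 (SE, n = 3 pairs, adjusted p = 0.164). G0S2, an inhibitor of lipolysis, was at 0.755, 2.99 and 1.33 FPKM in the controls and 0.597, 0.968 and 0.689 FPKM with JOA, with most of the difference in pair 2. BATF3, an AP-1 factor, was at 1.01, 2.14 and 1.03 FPKM in the controls and 0.639, 1.01 and 0.864 FPKM with JOA. KRT8, a keratin also counted among the epithelial markers, was at 1.62, 1.79 and 1.45 FPKM in the controls and 0.815, 1.19 and 1.14 FPKM with JOA, and the summed level of those 8 markers was 8.40 to 10.3 FPKM in the controls and 8.004 to 8.24 FPKM with JOA, with EPCAM, KRT5 and KRT14 at 0 throughout. NCAM1, which T and NK cell markers include, was at 1.99, 2.55 and 2.303 FPKM in the controls and 1.72, 1.82 and 1.99 FPKM with JOA, and the sum of those 10 markers was 31.8 to 33.3 FPKM in the controls and 29.5 to 31.7 FPKM with JOA. CCL3L3, a chemokine with copies, was at 1.23, 7.35 and 7.52 FPKM in the controls and 0.364, 3.89 and 6.16 FPKM with JOA, and POLR2J3, of a family of copies, at 1.61, 1.64 and 1.89 FPKM in the controls and 1.02, 1.08 and 0.191 FPKM with JOA, where JOA library 3 alone was near 0. HIST1H2BH (2.17, 1.24 and 1.35 FPKM in the controls and 2.16, 0.655 and 0.811 FPKM with JOA) and the read-through gene ZHX1-C8orf76 (3.52, 5.903 and 4.11 FPKM in the controls and 3.13, 3.18 and 2.86 FPKM with JOA) may share reads with neighbouring or like genes, which was not tested.

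Of the 8 genes that the study names for MOLM-13 cells, 5 passed the filter of 1 FPKM, and since they were chosen on these samples their direction is not independent evidence. FGR, SEMA6B and TREM2 are given above. LRFN3, an adhesion protein, was at 2.14, 1.98 and 1.48 FPKM in the controls and 2.75, 2.89 and 2.604 FPKM with JOA, with a log2 fold change of 0.55 ± 0.10 (SE, n = 3 pairs, adjusted p = 0.179), and SCIMP, an adaptor in antigen-presenting cells, at 1.31, 2.14 and 1.99 FPKM in the controls and 2.43, 2.11 and 2.33 FPKM with JOA, overlapping and with a pair 2 difference of -0.019. ALDH3A1, CALML6 and LPIN3 stayed below the filter and were fitted over all 15403 genes with any value above 0. ALDH3A1, an aldehyde dehydrogenase, was at 0.209, 0.349 and 0.331 FPKM in the controls and 0.221, 0.227 and 0.0320 FPKM with JOA. CALML6, a calmodulin-like protein, was at 0.0143, 0.0467 and 0 FPKM in the controls and 0.0828, 0.0489 and 0.0161 FPKM with JOA. LPIN3, a phosphatidate phosphatase, was at 0.0655, 0.0843 and 0.0552 FPKM in the controls and 0.165, 0.196 and 0.0935 FPKM with JOA, so that its groups did not overlap. The adjusted p of these genes was 0.639, 0.625 and 0.585 by limma. For ALDH3A1 and CALML6 the study also reports changes in MOLM-13 cells by RT-PCR and Western blotting. Those assays were not examined here.

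A contrast of the JOA effect in MOLM-13 with that in THP-1 cells was fitted by limma over both lines, for 9240 genes expressed in each. At an adjusted p under 0.05, 95 genes (1.03%) differed. Of these, 38 also had an unadjusted p under 0.05 in MOLM-13 cells, and 33 of the 38 differed from control in opposite directions in the 2 lines. Picking genes by their difference between lines favours opposite directions, so that this share is not a separate result. Cell line and dose cannot be told apart here. The log2 fold change of TRIB3 was -0.20 in MOLM-13 and 0.64 in THP-1 cells, a difference of -0.83 ± 0.095 (SE, adjusted p = 0.00921). That of CDKN1A was 0.25 in MOLM-13 and -0.18 in THP-1 cells, a difference of 0.42 ± 0.059 (SE, adjusted p = 0.0238). The count depended on the fit: without the pairing, 0 of 9240 genes were called.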

How the data were processed

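mRNA-seq was performed on MOLM-13 and THP-1 cells after 48 h with DMSO or JOA, from stranded mRNA libraries read as 150 bp pairs. What the authors deposited are FPKM values, scaled to gene length and to mapped fragments. Their processing notes name hg38, Trimmomatic, HISAT2, Cufflinks and HTSeq, with no versions or roles. The study's methods and the labels give 48 h, while a figure legend gives a longer time.

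FPKM values were used as deposited, in the 6 MOLM-13 libraries, grouped by their labels. Genes averaging 1 FPKM or more were kept, and log2(FPKM + 0.1) was fitted by limma 3.58.1 in R 4.3.3 (lmFit, eBayes with a mean-variance trend). The pseudocount understates fold changes of lowly expressed genes. Same-numbered libraries formed a block, since the deviations of all 3 such pairs correlated above 0.4 and no label states what the numbers share. P-values are two-sided and Benjamini-Hochberg adjusted over all genes tested, and each SE is the moderated one from eBayes. DESeq, used by the authors, needs counts and was not run. A call needed an adjusted p under 0.05 together with a log2 fold change of 0.58 or more in size. The contrast with THP-1 cells was called on the adjusted p alone. The fits were run on simulated data with planted changes far larger than most differences seen here. That run does not show how the fits treat shifts of the size described above.

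The genes, the 54 gene lists and the pairing were chosen with earlier results of these data known. Named were called genes, the 10 genes in each direction with the largest change among those at an unadjusted p under 0.05 and alike in all 3 pairs, the genes the study names for MOLM-13 cells, up to 4 members of a list with the smallest p with others whose role the text needs, and genes called between the lines. Date-like gene names, 14 of those tested, were kept and not named. Values of some list members are not reported here. Sequencing depth is unknown: a common step between low values could not be found, the most frequent ratio being shared by at most 10 genes of 1437. Promoters came from RefSeq (GRCh38.p14), and sequence stretches that overlap a GENCODE exon were not shown. Alternatives covered the pseudocount (1 and 0.01), the filter (0.1, or any value above 0), TPM, median and quantile rescaling, eBayes with no trend, no block, and each pair left out. Figures were drawn in Python 3.11.15 with matplotlib 3.10.9.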

Additional observations from a re-analysis of the deposited data

Results flagged for a closer look

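For 13 genes that belong to a gene list or to the genes with the largest differences, and that had an unadjusted p under 0.05 in MOLM-13 cells, the JOA effect differed between the lines by the limma contrast. In each case the log2 fold change in MOLM-13 cells minus that in THP-1 cells is given. Of 31 genes of the ATF4 list, 2 differed between the lines, at -0.83 for TRIB3 and -0.51 for SLC3A2. Of 16 granule genes, 4 did, among them PRSS57 at 0.70, ELANE at 0.38 and MPO at 0.49, where MPO was lower with JOA in both lines (-0.14 and -0.64). The difference was 0.42 for CDKN1A, 0.43 for IRF5, 0.41 for MYLIP, a ubiquitin ligase for the LDL receptor, 0.37 for LY86, 0.34 for TRIM22 and 0.44 for FASN. It was -0.63 for the transcription factor ETV4 and -1.27 for CCL3L3. The adjusted p ranged from 0.00921 for TRIB3 to 0.0469 for FASN. The dose was 0.5 μM in MOLM-13 and 2 μM in THP-1 cells, so that line and dose cannot be told apart.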

How the results depend on the processing

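The count of called MOLM-13 genes was 0 under the pseudocounts, filters, median centring, quantile normalization, eBayes without a trend, and without the replicate block, and also with no fold threshold at an adjusted p under 0.05 or 0.1. It was 1 under TPM rescaling (SHISA2 at -0.62, limma adjusted p = 0.0388) and ran from 0 to 13 when each pair was left out: 7 without replicate 1, 13 without replicate 2 and 0 without replicate 3, with 0 genes in common between the first and the second. Fits to 2 pairs leave 1 residual degree of freedom. Without the replicate block the genes at an unadjusted p under 0.05 were 258 higher and 138 lower, all 396 among the 1181 of the blocked fit. When pairs were left out these counts ranged from 555 to 693 and from 344 to 375. The contrast between lines called 33 genes with the filter at 0.1, 0 with any value above 0, 176 under TPM rescaling, 5 without a trend and 0 without the replicate block, and 5 to 22 when any pair of either line was left out. Of 564 list medians under alternatives, 550 moved by less than the standard deviation of the 3 pair medians. That count is no measure of robustness, since most settings could hardly exceed this limit. Dropping the block or the trend leaves every fold change as it was, and a fit without 1 pair still shares the other pairs. Some medians changed sign: 9 of 47 without replicate 1, 4 without replicate 2, 3 without replicate 3, 4 under median centring, 3 under TPM rescaling, 3 under quantile normalization and 2 with the filter of any value above 0. Without replicate 1 the retinoic acid targets turned from 0.15 to -0.0079 and the replication-dependent histones from 0.17 to -0.019. Without replicate 1, FLT3 turned from 0.051 to -0.041 and SCD from 0.17 to -0.017, and over the 3 fits that leave a pair out FLT3 reached 0.10 and SCD 0.28 at the highest. The depth is unknown, so no counting error can be given.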
